A study of Anser cygnoides with 12 samples.

Results

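PPARA and 8 genes of fatty acid oxidation (CPT1A, CPT2, ACADL, HADHA, HADHB, EHHADH, PDK4 and HSD17B11) were followed in the jejunum, the middle part of the small intestine, of 12 Sichuan white geese. The 9 genes were chosen by symbol, with earlier results of these data known. All 9 were found among the 18007 genes of the deposited table and passed the filter on low counts. Female geese aged 250 days were fed for 12 weeks on a corn-soybean meal diet without wheat germ (Con group), with 21.8% wheat germ (LWG group) or with 43.6% wheat germ (HWG group). From the 10 geese of each group, 4 were drawn at random for RNA-seq, so each library is 1 goose (n = 4 per group). Wheat germ took the place of soybean meal, rapeseed meal, soybean oil and bran in the feed, and the HWG diet held no soybean oil. The effect of wheat germ and that of less of these ingredients, soybean oil among them, therefore cannot be told apart.

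PPARA encodes a nuclear receptor that binds fatty acids and, paired with a retinoid X receptor, switches on genes of fatty acid oxidation. In mammals it is active in liver, heart and in the enterocytes of the proximal small intestine, which take up dietary fat. Long-chain fatty acids are bound to carnitine by CPT1A on the outer mitochondrial membrane and released as acyl-CoA by CPT2 on the inner one. Within the mitochondrion, acyl-CoA dehydrogenases such as ACADL take the first step of each turn of beta-oxidation, and the trifunctional protein, built from the HADHA and HADHB subunits, carries out the remaining ones. EHHADH does the corresponding hydration and dehydrogenation in peroxisomes. PDK4 phosphorylates and shuts off pyruvate dehydrogenase, which spares glucose when fatty acids are burned, and HSD17B11 is a short-chain dehydrogenase of lipid droplets. Genes of all these steps are known targets of PPARA in mammals.

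Deposited counts summed to between 40159187 and 45686956 per library. Small values favoured multiples of 4 (3148 entries of the table held a 4, 1250 a 3 and 1052 a 5), so a count need not stand for 1 read pair and intervals of counting error are not given. Markers of the absorptive cells differed between geese. The summed level of the 11 enterocyte markers in the table, of 17 listed, among them SI, ANPEP, APOB and EPCAM, was 10927, 5409, 21882 and 5544 CPM (counts per library brought to a common size, after TMM scaling for library composition) in the Con geese, 14280, 17521, 21421 and 23803 CPM in the LWG geese and 5468, 4419, 20020 and 4594 CPM in the HWG geese. This sum, in which the most abundant markers weigh most, was therefore higher in all LWG geese, in Con replicate 3 and in HWG replicate 3 than in the other geese. It was lowest in the other HWG geese and in Con replicates 2 and 4. The summed level of 7 smooth muscle markers, of 10 listed, ranged from 4075 to 15600 CPM in the Con group, from 6117 to 13480 CPM in the LWG group and from 5021 to 26719 CPM in the HWG group. GATA4, a transcription factor of the proximal intestine, was at 27.5 to 86.6 CPM in 7 geese, and in the other 5 (Con replicates 2 and 4, LWG replicates 1 and 2, HWG replicate 4) it was at most 2.66 CPM while HOXA10, which marks the distal intestine, was at 5.75 to 35.6 CPM. All libraries are labelled jejunum, and both kinds occurred in every group. Other position markers did not all follow this split. CALB1, also listed as proximal, was at 9.59 to 57.0 CPM in LWG replicate 4 and HWG replicates 1 and 2. It was at 411 and 610 CPM in Con replicates 2 and 4. FABP6, listed as distal, was highest in LWG replicates 4 and 3 (22451 and 15429 CPM) and lowest in HWG replicate 4 (693 CPM). ONECUT2, listed as proximal and at most 2.83 CPM, did follow the split. In whole tissue, fewer cells of a type and less RNA per cell cannot be told apart. Markers of other kinds also differed between the diets. At an unadjusted p under 0.05, 3 of the 6 tested genes of the distal intestine, all of bile acid handling (FABP6, SLC51A and SLC51B), were higher in LWG than in Con geese and lower in HWG than in LWG geese, and 3 of 5 crypt and proliferation genes (MKI67, TOP2A and CDK1) were lower in LWG than in Con geese. In addition, 3 of 8 leukocyte genes (CD3E, BLK and PAX5) were higher in LWG than in Con geese. For PAX5 this rested on LWG replicate 1 (36.0 CPM), as the other LWG geese were at 0.227 to 0.911 CPM. The summed leukocyte markers, mostly JCHAIN, went the other way. They averaged 1936 ± 485 CPM in LWG geese and 2986 ± 1623 CPM in Con geese (SD, n = 4 each). At the same p, 2 of 5 crypt and proliferation genes (OLFM4 and TOP2A) and 1 of 7 smooth muscle genes (LMOD1) were higher in HWG than in LWG geese. The shares of all tested genes at that p are given with the comparisons below, and the part of these markers in the results was not tested. CELA1, the only pancreatic marker in the table, was at most 0.284 CPM.

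The levels of the 9 genes were compared per transcript length with the deposited FPKM values (fragments per kilobase of transcript, scaled to the mapped fragments of the library). Averaged over the 12 geese, the order of these levels was ACADL (188 FPKM), PDK4 (120 FPKM), HADHA (100.02 FPKM), HADHB (81.9 FPKM), CPT1A (81.8 FPKM), HSD17B11 (68.9 FPKM), CPT2 (18.1 FPKM), EHHADH (7.95 FPKM) and PPARA (5.58 FPKM). The receptor was thus the least abundant transcript of the 9. ACADL exceeded PDK4 in 11 of 12 geese, HADHA exceeded HADHB in 11, and both HSD17B11 over CPT2 and CPT2 over EHHADH held in all 12. The neighbours PDK4 and HADHA (7 of 12 geese), HADHB and CPT1A (4 of 12), CPT1A and HSD17B11 (8 of 12) and EHHADH and PPARA (9 of 12) changed places between geese. The plot of levels per transcript length shows this order.

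**Figure D1:**
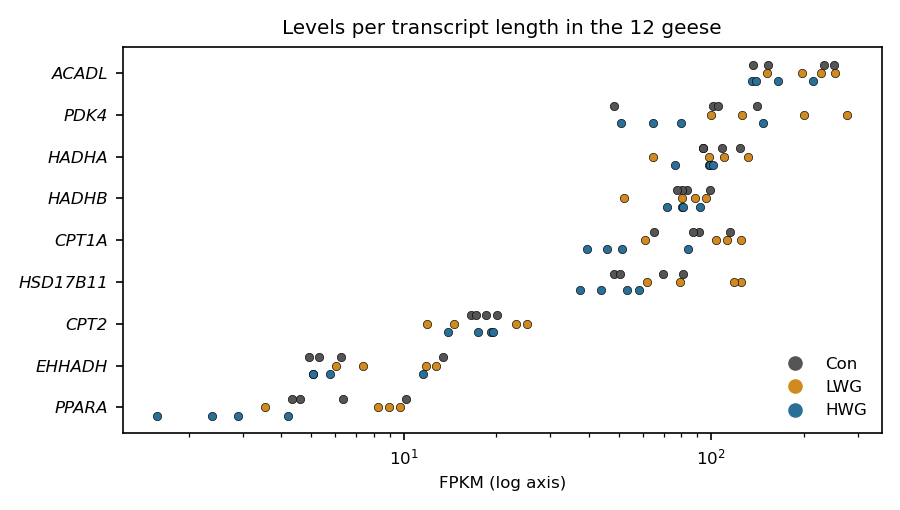
Level of each gene in FPKM (horizontal, log axis) in the 12 geese, with a point per goose coloured by diet group and the genes ordered by mean level. CPT2, EHHADH and PPARA lie below the other 6 genes in every goose, and PPARA runs from 1.58 to 10.2 FPKM.

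The genes also differed in how much they varied between geese. Over all 12 geese, the coefficient of variation of the CPM was 59.4% for PDK4, 57.9% for PPARA, 51.7% for EHHADH, 50.1% for HSD17B11 and 43.5% for CPT1A, while it was 33.2% for ACADL, 29.2% for CPT2, 24.4% for HADHA and 22.4% for HADHB. The highest goose stood 7.94-fold above the lowest for PPARA and 6.40-fold for PDK4, against 2.29-fold for HADHB. The least variable were both subunits of the trifunctional protein.

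Each pair of diet groups was tested by edgeR (quasi-likelihood F-test) in a single fit of all 12 libraries, with p-values adjusted over the 14863 genes tested. A log2 fold change is that of the first-named group over the second. No gene of the 14863 had an adjusted p under 0.05 in any comparison (0.0% each), so the 9 genes are also read at an unadjusted p under 0.05, beside the share of all genes at that p. DESeq2 called more genes at an adjusted p under 0.05, namely 110 between HWG and LWG, 5 between HWG and Con and 37 between LWG and Con. Of the 9 genes, these held 2 between HWG and LWG (PPARA and HSD17B11) and 0 in the other comparisons. In HWG over LWG, DESeq2 gave an adjusted p of 0.117 for CPT1A and 0.164 for PDK4. In HWG over Con it gave 0.334 for PPARA and 0.895 for CPT1A, and in LWG over Con 0.493 for HSD17B11.

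Between the HWG and LWG groups, 4 of the 9 genes were lower in the HWG geese at an unadjusted p under 0.05 and none was higher, where 10.6% of all tested genes passed, 5.41% lower and 5.15% higher. These were PPARA, CPT1A, PDK4 and HSD17B11. The other 5, all enzymes of the oxidation steps themselves apart from the carnitine transferase CPT2, had log2 fold changes between −0.62 and −0.14. The median log2 fold change of the 9 genes was −0.62, against 0.0055 for all tested genes. Between the HWG and Con groups, PPARA and CPT1A passed the same threshold with lower levels in HWG geese and none was higher, where 4.16% of all tested genes passed, 2.04% lower and 2.13% higher, and the median of the 9 genes was −0.25 (−0.0099 for all tested genes). Between the LWG and Con groups, HSD17B11 was higher at an unadjusted p under 0.05 and none was lower, where 6.63% of all tested genes passed, 2.83% higher and 3.8% lower, and the median of the 9 genes was 0.27 (0.0075 for all tested genes). The log2 fold changes of all 9 genes lay above 0 in LWG over Con and below 0 in HWG over Con and in HWG over LWG, but signs turned for CPT2, HADHA and HADHB in LWG over Con and HADHB in HWG over LWG when limma was run on FPKM, for CPT2, HADHA, HADHB and EHHADH when single geese were left out, and for up to 7 genes per comparison with the enterocyte covariate described below. These comparisons share geese, so they are not independent of each other. The 9 genes were chosen with earlier results of these data known, so their counts and medians beside those of all genes are a description.

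**Figure D2:**
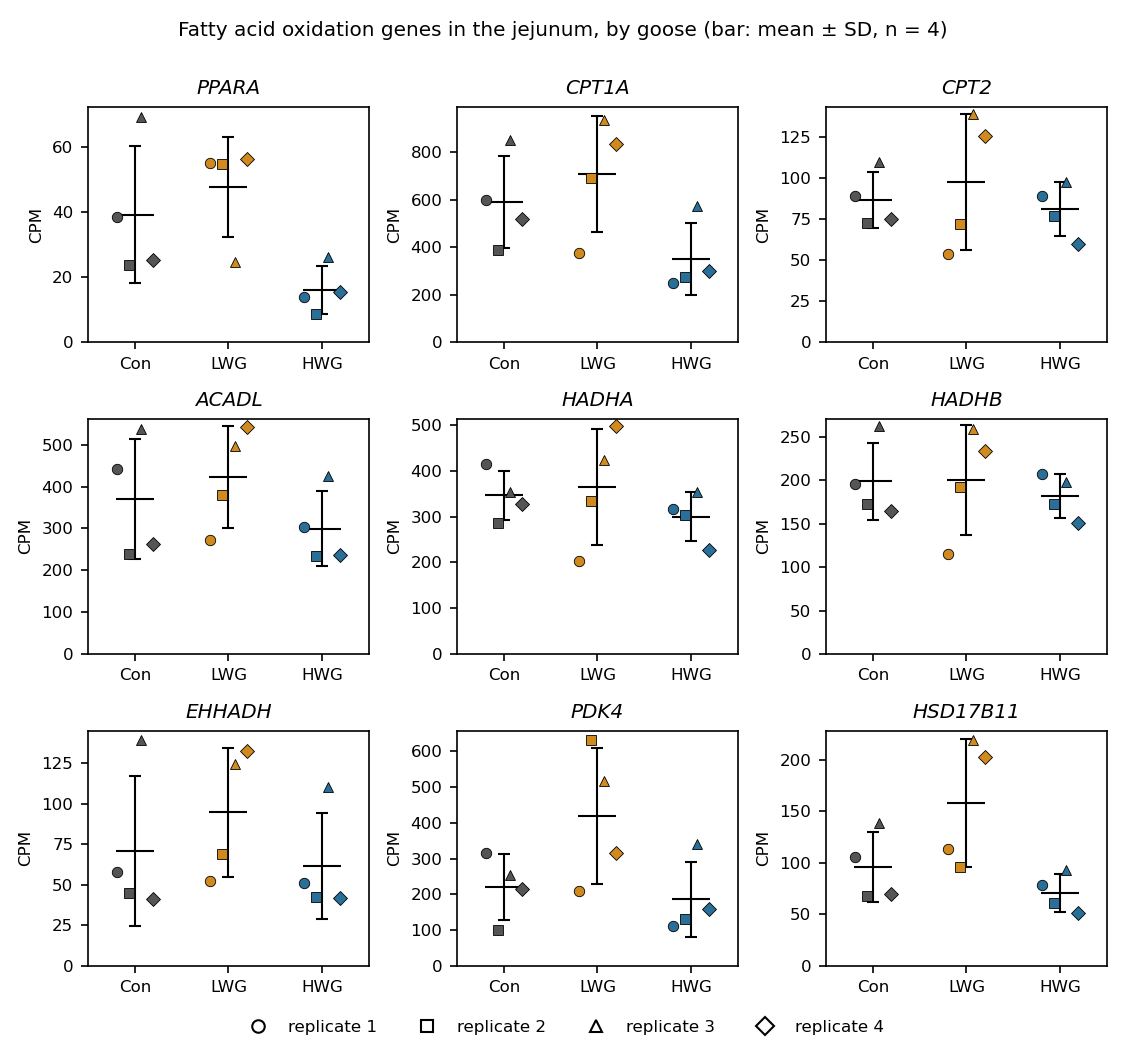
CPM (vertical, from 0) of each of the 9 genes by diet group, with a marker per goose shaped by replicate number, and a bar for the mean ± SD (n = 4). The HWG geese lie below the LWG mean for PPARA, CPT1A, PDK4 and HSD17B11, and replicate 3 is the highest Con or HWG goose in most panels.

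PPARA was at 38.3, 23.8, 69.1 and 25.2 CPM in the Con geese, 55.0, 54.7, 24.5 and 56.2 CPM in the LWG geese and 13.9, 8.70, 26.2 and 15.5 CPM in the HWG geese. The 3 lowest of all 12 geese were HWG geese, and the groups overlapped only through single birds, since HWG replicate 3 stood above LWG replicate 3 and above Con replicates 2 and 4. PPARA averaged 16.1 ± 7.37 CPM in HWG geese and 47.6 ± 15.4 CPM in LWG geese (SD, n = 4 each). The log2 fold change of HWG over LWG was −1.57 (standard error 0.406, unadjusted p = 0.0020, adjusted p = 0.338 from edgeR), and DESeq2 gave it an adjusted p of 0.0218. Against 39.1 ± 21.0 CPM in Con geese (SD, n = 4), the log2 fold change of HWG was −1.28 (standard error 0.403, unadjusted p = 0.0073, adjusted p = 0.939 from edgeR). It kept an unadjusted p under 0.05 in both HWG comparisons whichever goose was left out, with log2 fold changes of HWG over Con between −1.59 without HWG replicate 3 and −0.85 without Con replicate 3. The LWG and Con groups overlapped throughout, with a log2 fold change of 0.29 whose interval (1.96 standard errors on each side, here and below) ran from −0.49 to 1.06.

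Of the carnitine shuttle, CPT1A, the regulated entry step, was at 598, 390.4, 852 and 519 CPM in the Con geese, 375, 691, 937 and 834 CPM in the LWG geese and 251, 275, 574 and 299 CPM in the HWG geese. In the HWG group 3 of 4 geese were lower than every Con and LWG goose, and HWG replicate 3 stood within both of those groups. The log2 fold change of HWG over LWG was −1.02 (standard error 0.345, unadjusted p = 0.0111, adjusted p = 0.381 from edgeR). That of HWG over Con was −0.75 (standard error 0.343, unadjusted p = 0.0468, adjusted p = 0.939 from edgeR), and this call was lost when any 1 goose other than Con replicate 2, LWG replicate 1 or HWG replicate 3 was left out, with values from −0.81 to −0.51 in those 9 fits, the last without Con replicate 3. CPT2, the inner-membrane transferase, ranged from 73.0 to 109.9 CPM in the Con group, from 54.1 to 139 CPM in the LWG group and from 60.0 to 97.97 CPM in the HWG group. Its log2 fold changes were −0.27 for HWG over LWG (interval −0.81 to 0.27), −0.10 for HWG over Con (interval −0.64 to 0.44) and 0.17 for LWG over Con (interval −0.37 to 0.71). CPT2 overlaps a gene on the opposite strand, LOC106033003 (13.4 to 26.0 CPM), and whether the counting used the strand is not stated.

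Of the mitochondrial enzymes, ACADL, HADHA and HADHB overlapped between all 3 groups. ACADL, the long-chain acyl-CoA dehydrogenase, ranged from 238 to 537 CPM in the Con group, from 272 to 544 CPM in the LWG group and from 235 to 425 CPM in HWG geese. For ACADL, edgeR gave a log2 fold change of −0.50 for HWG over LWG (standard error 0.308, unadjusted p = 0.129, adjusted p = 0.578) and −0.31 for HWG over Con (interval −0.91 to 0.30). With single geese left out, ACADL in HWG over LWG ran from −0.68 without HWG replicate 3 to −0.32 without LWG replicate 4. Only the fit without HWG replicate 3 brought it under 0.05 (unadjusted p = 0.0490, adjusted p = 0.246 from edgeR). In that fit 2991 of the 14863 genes were at an unadjusted p under 0.05. HADHA, the subunit with the hydratase and hydroxyacyl-CoA dehydrogenase sites, was at 416, 287, 355 and 328 CPM in the Con geese, 204, 335, 424 and 499 CPM in the LWG geese and 317, 303, 353 and 228 CPM in the HWG geese. Both the lowest and the highest of the 12 values were LWG geese, so the spread within that group covered the range of the others. Without LWG replicate 1, the lowest, HADHA had a log2 fold change of −0.48 in HWG over LWG (unadjusted p = 0.0422, adjusted p = 0.390 from edgeR). HADHB, the thiolase subunit, was likewise lowest in LWG replicate 1 at 115 CPM, and ranged from 151 to 208 CPM in the HWG group. Over the 3 comparisons the log2 fold changes lay between −0.28 and 0.077 for HADHA and between −0.14 and 0.0099 for HADHB, with intervals for HWG over LWG of −0.78 to 0.21 for HADHA and −0.61 to 0.34 for HADHB.

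The HADHA and HADHB subunits are joined in a single complex, and their genes lie beside each other on opposite strands, with 3315 bases and no other gene between them in the deposited annotation. The ratio of the HADHA to the HADHB level in FPKM was 1.23 ± 0.168 over the geese (SD, n = 12), from 0.949 in Con replicate 3 to 1.49 in LWG replicate 4. HADHA itself ran from 64.8 to 132 FPKM and HADHB from 51.9 to 98.9 FPKM.

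EHHADH, the peroxisomal bifunctional enzyme, was at 57.5, 44.6, 139 and 41.0 CPM in the Con geese, 52.3, 69.1, 125 and 132 CPM in the LWG geese and 51.2, 42.5, 110.3 and 41.7 CPM in the HWG geese. Con replicate 3 and HWG replicate 3 stood far above the other geese of their groups, and LWG geese lay at both levels. The log2 fold change of HWG over LWG was −0.62 (standard error 0.446, unadjusted p = 0.186, adjusted p = 0.630 from edgeR). Without HWG replicate 3 it was −1.03 (unadjusted p = 0.0322, adjusted p = 0.205 from edgeR). The log2 fold change of LWG over Con was 0.42, and 0.97 without Con replicate 3 (unadjusted p = 0.0297, adjusted p = 0.327 from edgeR). HWG over Con was −0.20 and was 0.37 without Con replicate 3.

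PDK4 was at 315, 98.6, 255 and 214 CPM in the Con geese, 209.9, 631, 516 and 317 CPM in the LWG geese and 109.9, 132, 342 and 159.5 CPM in the HWG geese. The LWG group held the 2 highest geese, replicates 2 and 3, while LWG replicates 1 and 4 lay within the range of the HWG geese. PDK4 averaged 186 ± 106 CPM in HWG geese and 418 ± 190.2 CPM in LWG geese (SD, n = 4 each), a log2 fold change of −1.17 (edgeR, standard error 0.441, unadjusted p = 0.0196, adjusted p = 0.410). This call was lost without LWG replicate 2 (−0.88), LWG replicate 3 (−1.02), HWG replicate 1 (−0.96) or HWG replicate 2 (−1.04). LWG over Con was 0.92 (standard error 0.438, unadjusted p = 0.0552, adjusted p = 0.745 from edgeR), and its unadjusted p was under 0.05 without Con replicate 1 (1.15), LWG replicate 1 (1.14) or HWG replicate 3 (0.91). It was lowest, at 0.65, without LWG replicate 2. HWG over Con was −0.25 (interval −1.10 to 0.60).

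HSD17B11 was at 106, 67.2, 139 and 69.7 CPM in the Con geese, 114, 96.1, 219 and 203 CPM in the LWG geese and 78.1, 60.7, 92.4 and 51.0 CPM in the HWG geese. It was the only one of the 9 genes for which HWG and LWG geese did not overlap, a separation that 4.39% of all tested genes showed in either direction and 1.94% with HWG lower. No member was separated between HWG and Con (2.31% of all tested genes) or between LWG and Con (2.87%). The gap was small, as HWG replicate 3 at 92.4 CPM lay just under LWG replicate 2 at 96.1 CPM. HSD17B11 averaged 70.5 ± 18.4 CPM in HWG geese and 158 ± 62.0 CPM in LWG geese (SD, n = 4 each). The log2 fold change was −1.16 (standard error 0.315, unadjusted p = 0.0027, adjusted p = 0.338 from edgeR), with an adjusted p of 0.0431 from DESeq2. Against 95.4 ± 33.9 CPM in Con geese (SD, n = 4), the log2 fold change of LWG was 0.73 (standard error 0.312, unadjusted p = 0.0366, adjusted p = 0.725 from edgeR), a call lost without Con replicate 2 (0.59), Con replicate 4 (0.60), LWG replicate 3 (0.53) or LWG replicate 4 (0.58). HWG over Con was −0.43 (interval −1.04 to 0.17). HSD17B11 overlaps LOC106041926 on the same strand, which was at 1.45 to 3.79 CPM.

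Within a group, the same geese tended to be high for most of the 9 genes. Con replicate 1, Con replicate 3 and LWG replicate 4 were above the median of the 12 geese for 9 of 9 genes, and LWG replicate 3 and HWG replicate 3 for 8 of 9. Con replicates 2 and 4 and HWG replicates 2 and 4 were above it for none. LWG replicate 1 was the exception in its group, above the median for 2 genes and lowest of all geese for CPT2, HADHA and HADHB, and LWG replicate 3 had the lowest PPARA of its group but the highest CPT1A, CPT2 and HSD17B11 of all geese. These profiles ran beside the enterocyte markers, whose summed level was 20020 to 23803 CPM in Con replicate 3, LWG replicates 3 and 4 and HWG replicate 3 and 4419 to 5544 CPM in Con replicates 2 and 4 and HWG replicates 1, 2 and 4. The geese between them did not follow this order, as Con replicate 1 had a lower sum (10927 CPM) than LWG replicate 1 (14280 CPM) but stood above the median for more genes. Single markers went both ways between these geese. ANPEP was at 1914 CPM in Con replicate 1 and 3857 CPM in LWG replicate 1, and TMIGD1 at 210 and 1049 CPM. SI was at 2578 and 2463 CPM, and APOB at 1220 and 856 CPM, in the same order. The plot of gene levels beside the enterocyte markers shows PPARA, EHHADH and HADHB against the sum.

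**Figure D3:**
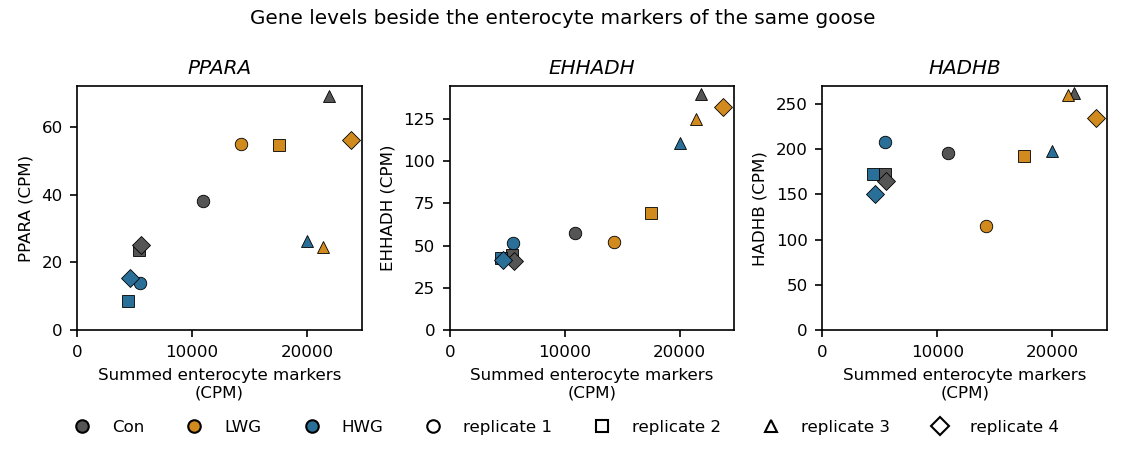
CPM of PPARA, EHHADH and HADHB (vertical) against the summed CPM of 11 enterocyte markers in the same goose (horizontal), coloured by diet group and shaped by replicate. The 4 highest EHHADH values (110.3 to 139 CPM) are in the 4 geese with the highest marker sums, while for PPARA LWG replicate 3 and HWG replicate 3 lie low (24.5 and 26.2 CPM) at high marker sums.

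The comparisons were therefore repeated with the mean log2 CPM of the enterocyte markers as a covariate, an alternative chosen after the values had been seen. The markers themselves had a median log2 fold change of −0.99 in HWG over LWG, with 3 of 11 lower at an unadjusted p under 0.05, −0.40 in HWG over Con and 0.60 in LWG over Con, where 1 of 11, TMIGD1, was higher. TMIGD1 was at 886 to 1187 CPM in LWG geese and at 210 to 655 CPM in Con geese. The paper instead lists TMIGD1 among the genes lower in the LWG group, and CENPF, which it ties to the cell cycle, among the higher ones. Libraries were assigned to groups here by their titles. Why the direction for TMIGD1 differs from the paper was not tested, and this bears on every comparison with the LWG group. With the covariate, 3.91% of all tested genes passed an unadjusted p of 0.05 in HWG over LWG (2.39% lower) and in HWG over Con, and 6.38% in LWG over Con. The log2 fold change of PPARA was then −0.94 in HWG over LWG (unadjusted p = 0.0217, adjusted p = 0.9998 from edgeR) and −0.99 in HWG over Con (unadjusted p = 0.0057, adjusted p = 0.994 from edgeR). CPT1A was at −0.39 in HWG over LWG (unadjusted p = 0.173, adjusted p = 0.9998 from edgeR) and at −0.56 in HWG over Con (unadjusted p = 0.0231, adjusted p = 0.994 from edgeR). The other calls were not kept, as HSD17B11 was at −0.53 and PDK4 at −0.60 in HWG over LWG (unadjusted p = 0.0834 and 0.190, adjusted p = 0.9998 from edgeR for both), and HSD17B11 was at 0.34 in LWG over Con. For CPT2, ACADL, HADHA, HADHB and EHHADH the log2 fold change of HWG over LWG turned to between 0.020 and 0.35. As the markers differed between the diets, the part of cell makeup and that of the diet in these values cannot be told apart.

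**Figure D4:**
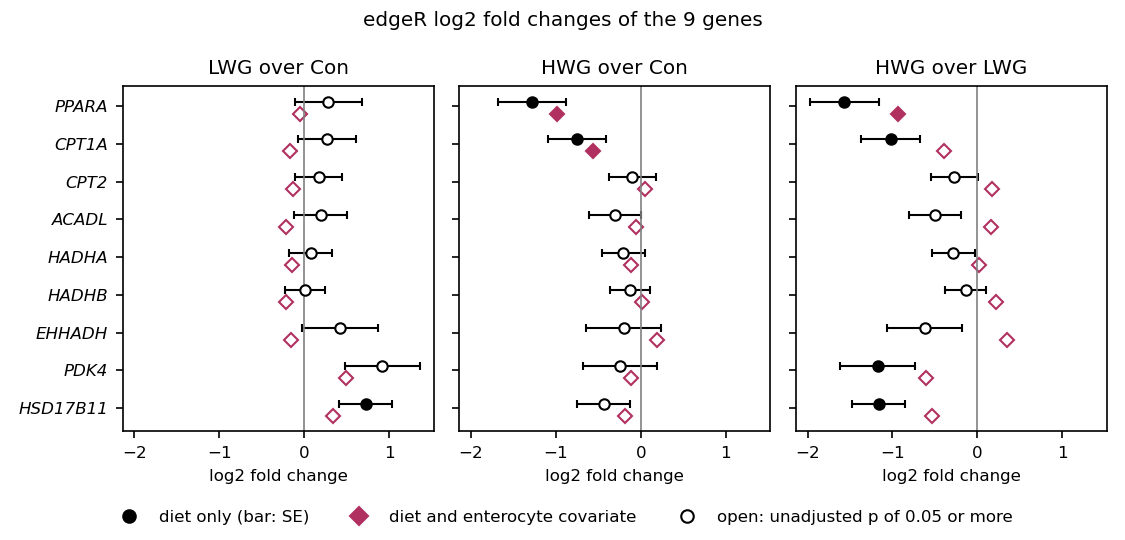
edgeR log2 fold changes (horizontal) of the 9 genes for LWG over Con, HWG over Con and HWG over LWG. Circles with bars give the fit with diet as the only factor and its standard error, diamonds the fit with the enterocyte covariate, and open symbols an unadjusted p of 0.05 or more. With the covariate, the filled symbols left are PPARA in both HWG comparisons and CPT1A in HWG over Con.

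With a second covariate, also chosen after the values had been seen, the log2 CPM of GATA4 minus that of HOXA10, the members at an unadjusted p under 0.05 numbered 6 of 9 in HWG over LWG, 3 in HWG over Con and 2 in LWG over Con, where 17.6%, 7.62% and 9.19% of all tested genes passed. HSD17B11 then had a log2 fold change of −1.26 in HWG over LWG, with an adjusted p of 0.0376 from edgeR, and was 1 of 2 genes called. Among the added members, ACADL was at −0.62 (unadjusted p = 0.0163, adjusted p = 0.183 from edgeR) and EHHADH at −0.78 (unadjusted p = 0.0333, adjusted p = 0.241 from edgeR). PPARA was at −1.65, close to its value with diet alone.

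Of 108 other genes listed for the pathway by role, also with earlier results of these data known, 90 were in the table and 89 were tested. Between HWG and LWG, 8 were lower and 1 was higher at an unadjusted p under 0.05, where 5.41% of all tested genes were lower and 5.15% higher. After adjustment over all tested genes edgeR called none of the 89 in any comparison. With the enterocyte covariate 1 was lower and 2 were higher, none of them a regulator, where 2.39% of all tested genes were lower (355) and 226 were higher. With the GATA4 and HOXA10 covariate 32 were lower and none was higher, where 9.77% of all tested genes were lower (1452) and 1162 were higher. Among the 12 tested genes listed as PPAR regulators, which include the related receptors PPARD and PPARG, 4 were lower with diet alone. PPARGC1A, the coactivator of PPARA, averaged 10.03 ± 1.32 CPM in HWG geese and 19.7 ± 9.18 CPM in LWG geese (log2 fold change −0.97, standard error 0.317), and RXRA, its retinoid X receptor partner, averaged 14.4 ± 1.46 CPM in HWG geese and 20.6 ± 4.09 CPM in LWG geese (log2 fold change −0.52). HNF4A, a nuclear receptor of the intestinal epithelium, had a log2 fold change of −0.85, and CREB3L3, a regulator of lipid metabolism in liver and intestine that is named here beyond the limit of 3 genes per role, one of −1.52. Fatty acid entry held 1 lower gene of 11, SLC27A4, a fatty acid transport protein of the enterocyte, at −0.71, and the mitochondrial enzymes 1 of 15, ACAD10, at −0.66. None of the 7 ketone body genes, the 9 genes of malonyl-CoA control and the 9 genes of pyruvate dehydrogenase control tested was at such a p. G0S2, an inhibitor of the lipase ATGL, was the 1 higher gene, at 4.10 ± 4.12 CPM in HWG geese and 1.26 ± 0.667 CPM in LWG geese, and HWG replicate 1 alone stood at 10.1 CPM.

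All 18 tested genes listed under peroxisomal oxidation had log2 fold changes below 0 in HWG over LWG. Their median was −0.53, where 49.4% of all tested genes lay below 0. With limma on FPKM, with either pseudocount, 16 of the 18 lay below 0. Past an unadjusted p of 0.05 in edgeR were ACOT8, a peroxisomal acyl-CoA thioesterase, and ABCD3, a transporter that brings acyl chains into the peroxisome. ACOT8 was at 25.1, 22.5, 17.7 and 21.0 CPM in HWG geese, below all LWG geese at 29.7, 34.4, 35.9 and 35.2 CPM (log2 fold change −0.65, standard error 0.166, unadjusted p = 0.0018, adjusted p = 0.338 from edgeR). For ABCD3 the log2 fold change was −0.84 (standard error 0.323). With the enterocyte covariate, 4 of the 18 lay below 0 and the median was 0.15, and with the GATA4 and HOXA10 covariate all 18 lay below 0 and 11 passed an unadjusted p of 0.05, where 9.77% of all tested genes were lower at that p.

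Between HWG and Con, 2 of the 89 genes were lower and 2 were higher at an unadjusted p under 0.05, close to the shares of all tested genes (2.04% lower and 2.13% higher). The lower ones were ACOT8 (log2 fold change −0.42) and PRKAG1, a regulatory subunit of the AMP-activated kinase (−0.53), and the higher ones were PRKAA2, a catalytic subunit of the same kinase (0.76), and ACSL3, an acyl-CoA synthetase (0.43). Between LWG and Con, 7 were higher and none was lower, where 2.83% of all tested genes were higher and 3.8% lower. They were RXRA (0.53) and PPARGC1A (0.70) of the regulators, SLC27A4 (0.56), ACAD10 (0.62), the peroxisomal transporter ABCD2 (1.18), HMGCLL1, a lyase of the ketone body pathway (1.27), and FABP1, a fatty acid binding protein (2.52). FABP1 was at 348, 441, 779 and 3351 CPM in LWG geese and 210.3, 47.2, 539 and 62.3 CPM in Con geese. ABCD2 was at 582 CPM in LWG replicate 4 and at 87.4 to 199 CPM in the other LWG geese. HMGCLL1 was near the floor, at 1.31 ± 0.450 CPM in LWG geese and 0.541 ± 0.447 CPM in Con geese (SD, n = 4 each). The median log2 fold change of the 89 genes was −0.27 in HWG over LWG, −0.10 in HWG over Con and 0.14 in LWG over Con, and with the enterocyte covariate these turned to 0.081, 0.051 and −0.11.

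PPARA was also correlated with every other tested gene over the 12 geese on the log2 CPM scale, with p-values from 100000 permutations adjusted over 14862 genes. Pearson's r was above 0 with all 8 other members, although on log2(FPKM + 0.1) it was −0.13 for CPT2, −0.016 for HADHA and −0.16 for HADHB, and for HADHB it was −0.094 without the 2 geese named below. CPT1A was the closest of them (r = 0.72, permutation p = 0.0104, adjusted p = 0.170; Spearman's rho = 0.69, permutation p = 0.0168, adjusted p = 0.176). ACADL (r = 0.63), HSD17B11 (r = 0.63), PDK4 (r = 0.58) and EHHADH (r = 0.56) followed, with permutation p-values between 0.0292 and 0.0602 and adjusted ones between 0.227 and 0.298, and Spearman's rho between 0.57 and 0.73. HADHA (r = 0.25), HADHB (r = 0.17) and CPT2 (r = 0.17) had permutation p-values from 0.436 to 0.592. No gene reached an adjusted p under 0.05, while 2672 of the 14862 genes had an unadjusted one. The smallest p that 100000 permutations can give is about 1e-05, and some genes were at it. The lack of adjusted calls is therefore limited by the number of permutations. Without the 2 geese farthest from the median of PPARA, HWG replicate 2 and Con replicate 3, r was 0.58 for CPT1A and PDK4, 0.54 for HSD17B11, 0.45 for ACADL and 0.36 for EHHADH, and within groups, on residuals from the group means, it was 0.53 for ACADL and EHHADH, 0.41 for CPT1A, 0.38 for PDK4 and 0.29 for HSD17B11. The 11 enterocyte markers had r from 0.60 (FABP2) to 0.80 (TMIGD1), and the 7 smooth muscle markers from −0.71 (MYH11) to −0.42 (SYNPO2). Without the same 2 geese, the enterocyte markers ran from 0.41 (MTTP) to 0.77 (TMIGD1). The smooth muscle markers then ran from −0.55 (LMOD1) to 0.27 (SYNPO2). The part of cell makeup in the correlations was not tested.

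The 10 genes with the largest r with PPARA, among those with a symbol, were PMS1, SLC35B3, PACSIN1, NR3C2, CCDC176, STXBP5, MGAT4A, TBC1D12, DMXL1 and MAN1A1, with r from 0.90 to 0.94 over the 12 geese and adjusted permutation p-values from 0.0637 to 0.0951. None of the 8 other members was among them, as CPT1A ranked 577th of 14862. NR3C2, the mineralocorticoid receptor, was at 69.8, 69.2, 119 and 84.3 CPM in HWG geese and at 141, 160.0, 118 and 139 CPM in LWG geese. MGAT4A, a glycosyltransferase of the Golgi, was at 5.64, 7.73, 22.5 and 8.03 CPM in HWG geese and at 42.5, 27.6, 22.5 and 34.1 CPM in LWG geese. In both genes, as in PPARA, HWG replicate 3 was the highest HWG goose and LWG replicate 3 the lowest LWG goose. Since these genes were picked for their likeness to PPARA, their differences between diets are given as a description.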

How the data were processed

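RNA-seq reads of 150 bases in pairs from the jejunum were filtered by the authors with fastp, aligned with HISAT2 and quantified with StringTie, with versions not given in the sources used here. The authors deposited whole-number counts per gene, not normalized, and FPKM values, fragments scaled by transcript length and library size. How counts were made from the StringTie output is not stated. Libraries were made with a strand-marking protocol.

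In R 4.3.3, edgeR 4.0.16 filtered the deposited counts with filterByExpr, applied TMM scaling and tested the diet group, with no other term, by quasi-likelihood F-tests over the 12 libraries together, followed by Benjamini-Hochberg adjustment. Intervals of fold changes are 1.96 standard errors wide on each side. Log2 CPM used a prior count of 2. The script was tested on simulated data. Alternatives were no filter, a mean FPKM of at least 1, DESeq2 size factors, DESeq2 1.42.0, limma 3.58.1 on log2(FPKM + 0.1) and log2(FPKM + 1), counts divided by 4, only the groups compared, the replicate number as a block and each goose left out in turn. Both covariates were added after the data had been seen. Correlations and figures used Python 3.11.15, numpy 2.4.6, scipy 1.17.1, pandas 2.3.3 and matplotlib 3.10.9.

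The 9 genes and the lists were chosen with earlier results of these data known. Besides all 9 genes, those named are the pathway genes with an unadjusted p under 0.05 (at most 3 per role and comparison, smallest p first) and the 10 genes most like PPARA. Marker genes are named where they describe a list. Positions and sequences are not given, since the assembly behind the table is not named in it. No 2 libraries were alike (smallest chi-square per degree of freedom of 66 pairs, 97.0). Replicates are separate geese. The labels give no batch.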

Additional observations from a re-analysis of the deposited data

Results flagged for a closer look

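Of 27 sets of 4 geese checked (9 genes in 3 groups), 4 held a goose that stood apart from the other 3 by most of the range of its group. The threshold used is passed by about 1 in 20 sets of independent, normally distributed values. The 9 genes were read in the same geese and tended to vary together. The sets are therefore not independent, and their number is not compared with that rate. PPARA was at 24.5 CPM in LWG replicate 3 and at 54.7 to 56.2 CPM in the other LWG geese. CPT1A was at 574 CPM in HWG replicate 3, and EHHADH was at 110.3 CPM in the same goose, with the other HWG geese at 251 to 299 CPM for CPT1A and at 41.7 to 51.2 CPM for EHHADH. EHHADH was at 139 CPM in Con replicate 3 and at 41.0 to 57.5 CPM in the other Con geese. Replicates 3 of the Con and HWG groups also had the highest summed enterocyte markers of their groups (21882 and 20020 CPM), and the part of these markers in the high values was not tested.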

How the results depend on the processing

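The number of genes at an adjusted p under 0.05, 0 with edgeR in each comparison (with 1569, 619 and 985 at an unadjusted p under 0.05 for HWG over LWG, HWG over Con and LWG over Con), became 110, 5 and 37 with DESeq2. In HWG over LWG it was 2 with the GATA4 and HOXA10 covariate and 8 with the replicate number as a block. Leaving out 1 goose gave 0 to 123 genes in HWG over LWG (123 without HWG replicate 3), 0 to 2 in HWG over Con and 0 to 1 in LWG over Con. The number of the 9 genes at an unadjusted p under 0.05 in LWG over Con, 1 as reported, was 2 without a filter, with only the groups compared, with DESeq2 and with the GATA4 and HOXA10 covariate, and 0 with the enterocyte covariate. PDK4 was the gene added. The genes at that p among all tested, 985 as reported, numbered 1140 (of 17822 tested), 969, 1208, 1366 and 949 in these fits, in the same order. In HWG over LWG the number of the 9 genes was 4 as reported, 5 with the block and 1 with the enterocyte covariate. The genes at that p among all tested, 1569 as reported, then numbered 1934 and 581. Leaving out 1 goose gave 3 to 6 of the 9 genes in HWG over LWG, 1 to 2 in HWG over Con and 0 to 2 in LWG over Con. Among all tested genes these fits gave 948 to 2991, 400 to 1641 and 675 to 1915. Without HWG replicate 3, the fit with 6 of the 9 genes, 2991 of 14863 genes were at that p.

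The deviations of same-numbered geese had correlations of −0.28 to 0.38 over 12 pairs (median 0.075). Over 36 pairs with different numbers the correlations were −0.29 to 0.30 (median −0.0022). The largest, 0.38, was between Con replicate 3 and HWG replicate 3. With so few geese per group, these correlations cannot decide whether the numbers pair the geese. The block brought EHHADH in HWG over LWG to −0.70 (unadjusted p = 0.0329, adjusted p = 0.323 from edgeR).

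Signs turned only for log2 fold changes that were not past an unadjusted p of 0.05. With limma on log2(FPKM + 0.1) or log2(FPKM + 1), which moved the median of all genes by −0.10 or −0.066 in LWG over Con and by 0.14 or 0.097 in HWG over LWG, LWG over Con was −0.018 or −0.014 for CPT2, −0.089 or −0.087 for HADHA and −0.13 in both for HADHB, and HWG over LWG was 0.069 or 0.067 for HADHB. With the enterocyte covariate, LWG over Con was −0.054 for PPARA, −0.17 for CPT1A, −0.13 for CPT2, −0.21 for ACADL, −0.14 for HADHA, −0.21 for HADHB and −0.16 for EHHADH. HWG over Con was then 0.048 for CPT2, 0.011 for HADHB and 0.19 for EHHADH, and HWG over LWG was 0.18 for CPT2, 0.16 for ACADL, 0.020 for HADHA, 0.22 for HADHB and 0.35 for EHHADH. Leaving out 1 goose, LWG over Con ran from −0.054 to 0.37 for CPT2, from −0.12 to 0.27 for HADHA and from −0.14 to 0.20 for HADHB, HWG over Con from −0.17 to 0.046 for CPT2, from −0.21 to 0.048 for HADHB and from −0.61 to 0.37 for EHHADH, and HWG over LWG from −0.33 to 0.046 for HADHB. The cause of these turns was not tested.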
